A study of Homo sapiens with 6 samples.

Results

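The nuclear-encoded subunits of the respiratory chain and of ATP synthase were followed in ARPE-19 cells exposed to glucose oxidase, an enzyme that generates hydrogen peroxide while it oxidises the glucose of the medium. ARPE-19 is an established human cell line of retinal pigment epithelium. Genes were chosen by symbol alone, with the brightest of a gene's probe sets read for each: those of the NDUFA, NDUFB, NDUFC, NDUFS and NDUFV families (which takes in the NDUFAF assembly factors), SDHA to SDHD, the UQCR genes, COX4 to COX8, the ATP5 genes, CYC1 and CYCS. The array held 93 of them, out of 18132 genes with a probe set, and 90 were bright enough to be tested among 12221 genes. COX7B2, COX8C and ATP5MGL were under the floor of log2 4.64 in their mean over all arrays. SDHB and UQCRFS1 had no probe set with a single gene symbol and were not analysed here.

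Each group held 3 arrays. Per the protocol, all cells received a plasmid for green fluorescent protein, GFP. After 48 h, cells of 1 group were given 10 mU/ml glucose oxidase for 3 h (the 3 h group), and those of the other were left without it (the 0 h group). The descriptions of the 3 h arrays name instead a construct of GFP with alpha satellite, so treatment and construct cannot be told apart as labelled. No group kept for the same time without the enzyme was listed. Separate cultures are not stated for the replicates, and the p-values then measure only the spread between these samples, which may be technical.

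Mitochondrial oxidative phosphorylation is carried out by 5 assemblies in the inner membrane. Complex I takes electrons from NADH and complex II from succinate. Both pass them through ubiquinone to complex III, from which cytochrome c carries them to complex IV, where oxygen is reduced. Complexes I, III and IV pump protons, and complex V, the ATP synthase, uses the returning protons to make ATP. Most subunits are encoded in the nucleus, while a few core subunits are encoded by mitochondrial DNA. The retinal pigment epithelium is known for a high demand on this pathway, since it leaves much of the glucose it takes up for the photoreceptors.

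On the deposited log2 scale, 60 of the 90 tested members were lower at 3 h, 2 were higher (SDHA and CYC1) and 28 did not pass an adjusted p of 0.05. Among all tested genes, 51.3% passed in either direction, 30.8% lower and 20.6% higher. In 72 members all 3 h arrays lay below all 0 h arrays, in 5 all lay above, and in 13 the groups overlapped. The corresponding shares of all tested genes were 35.7% below and 24.8% above. The members' median change was -0.21, against -0.04 for all tested genes, and 78 of 90 lay below the latter. The changes were small in size. Of the 90, 22 reached 1.25-fold and 2 reached 1.5-fold, where 30.8% and 9.03% of all tested genes did, against a median SD between arrays of 0.04 at 0 h and 0.05 at 3 h. In bulk RNA, fewer cells of a type and less RNA per cell cannot be told apart.

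The 3 h arrays resembled each other in this respect. Relative to each member's 0 h mean, the median over the 90 members was 0.02, -0.01 and -0.00 on the 0 h arrays and -0.21, -0.22 and -0.22 on the 3 h arrays. All 3 h arrays therefore lay below all 0 h arrays, while the same median over all tested genes ran from -0.05 to -0.03 at 3 h.

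**Figure D1:**
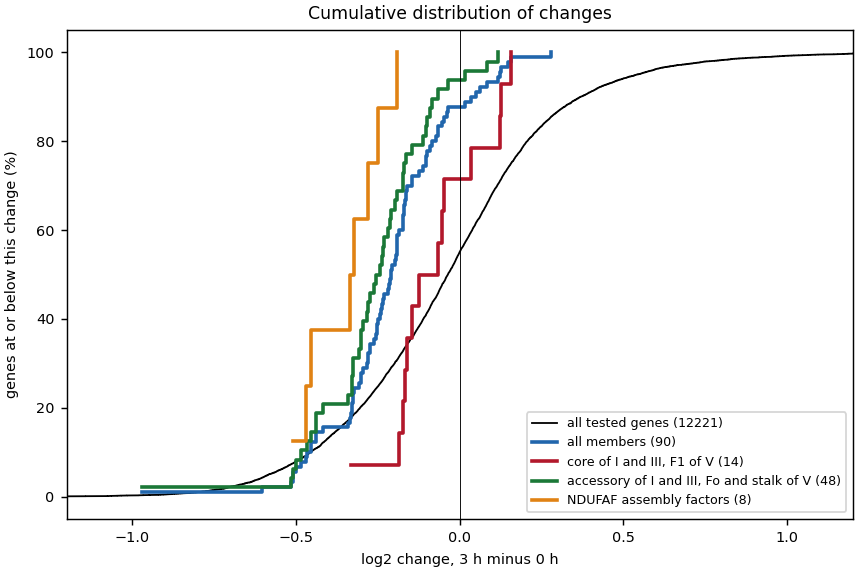
Cumulative share of genes (%, vertical axis) at or below each log2 change, 3 h minus 0 h (horizontal axis, with the extremes left off), for all 12221 tested genes, the 90 members and 3 groups of members, on the deposited scale. The curve of the members lies to the left of that of all genes over most of its range and crosses it near the lowest changes; the catalytic and core subunits lie to the right of the accessory subunits and assembly factors, a grouping made with these values known and not tested.

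Measures of sample handling also moved between the groups. All 24 probe sets for the poly-A spikes, bacterial transcripts added to the RNA before labelling, were lower at 3 h (median -0.60), as were 17 of 18 for the spikes added at hybridization (median -0.31). Set against the poly-A spikes the sign of the members' median turned to 0.38, and that of all tested genes was 0.56. The same spike median was taken from both, so the difference between them (-0.17) is equal on either scale by arithmetic and tests nothing. The 5′ probe set of actin went from -2.06 ± 0.07 to -1.20 ± 0.06 relative to the 3′ probe set (log2, SD, n = 3), and that of GAPDH from -0.39 ± 0.05 to -0.13 ± 0.04. The part of these differences in the members' changes was not tested. RPE65, RLBP1, TYRP1 and MERTK, defining genes of retinal pigment epithelium, were under the floor. Of the other 10 listed markers 5 rose and 1 fell, beside 20.6% higher and 30.8% lower of all tested genes. The epithelial keratin KRT8 was 0.40 higher, and KRT18, EZR, MITF and OTX2 also rose. SERPINF1, a secreted factor of this epithelium, was 0.40 lower, and BEST1, PMEL, TTR and TYR were not called. The call of OTX2 was lost without 0 h replicate 1, while BEST1 was called without 0 h replicate 2 and PMEL without 3 h replicate 2. Of 7 markers of blood and endothelium 3 were under the floor, CD14, CDH5 and PTPRC, and limma called 0 of the other 4, of which CD3E and VWF had an unadjusted p under 0.05; the mean over the list ran from 4.32 to 4.43 at 0 h and from 4.42 to 4.49 at 3 h.

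Complex I, the NADH dehydrogenase, had 44 tested members, with a median change of -0.27 and a range from -0.52 to 0.08. Of the 44, 31 were lower, 0 higher and 13 not called, beside 30.8% lower and 20.6% higher of all tested genes. The accessory subunits of complex I, which surround the catalytic core, made up 21 of the 31 lower, of 30 tested. NDUFB1, a small accessory subunit of the membrane arm, read 11.95, 11.87 and 11.94 on the 0 h arrays and 11.45, 11.45 and 11.32 on the 3 h arrays. All 3 h arrays were below all 0 h arrays, and the gene fell 1.43-fold (log2 change -0.52, SE 0.059, adjusted p = 0.000223). NDUFS5, an accessory subunit on the intermembrane side, read 12.02, 11.97 and 12.05 at 0 h and 11.56, 11.46 and 11.48 at 3 h. The groups did not overlap, and the change was -0.51 with an adjusted p of 0.000185, from an only probe set of a type that can match several transcripts or genes. NDUFA6, which docks the mitochondrial acyl carrier protein on complex I, read 11.26, 11.21 and 11.18 at 0 h and 10.71, 10.75 and 10.73 at 3 h, 1.40-fold lower without overlap (adjusted p = 0.000168). NDUFB2 of the membrane arm fell by 0.47, NDUFA2 by 0.46, NDUFS4 by 0.44, NDUFB3 by 0.44 and NDUFA8 by 0.42 on the log2 scale. NDUFS4 is the subunit whose loss gives the widely used mouse model of Leigh syndrome. At the other end, NDUFA10 changed by 0.08 (adjusted p = 0.209) and NDUFB10 by 0.02 (0.827), and neither passed the test. The other probe sets of NDUFA10 gave 0.39, with all 3 h arrays above all 0 h arrays, and -0.05. With the mean of all its probe sets NDUFA10 was called higher, at 0.14.

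The 8 NDUFAF genes, which encode assembly factors that do not stay in the finished complex, were all lower, with a median of -0.33. NDUFAF7, a methyltransferase of early assembly, read 7.63, 7.73 and 7.62 at 0 h and 7.08, 7.19 and 7.18 at 3 h. It fell 1.42-fold with no overlap between the groups (adjusted p = 0.000263). NDUFAF4, a factor of early assembly, read 9.70, 9.62 and 9.54 at 0 h and 9.12, 9.16 and 9.18 at 3 h, 1.39-fold lower (adjusted p = 0.00033). NDUFAF2, a paralogue of NDUFA12 that acts late in assembly, read 10.01, 9.94 and 10.01 at 0 h and 9.53, 9.54 and 9.53 at 3 h, 1.37-fold lower. The 3 values of each group lay closer together than the groups did in all of these. NDUFAF5 fell by 0.34, NDUFAF6 by 0.32, NDUFAF1 by 0.28, NDUFAF8 by 0.25 and NDUFAF3 by 0.19. The call of NDUFAF3 was lost in 3 of the 6 fits that leave out 1 array (0 h replicates 1 and 2 and 3 h replicate 3, adjusted p up to 0.0833).

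The 6 tested core subunits, which bind flavin and iron-sulphur clusters or the quinone site, had a median change of -0.10. Of these, 2 were called lower (33.3%, beside 30.8% of all tested genes). NDUFS3 of the quinone module read 10.50, 10.47 and 10.47 at 0 h and 10.14, 10.16 and 10.16 at 3 h and fell 1.26-fold (adjusted p = 0.00077). NDUFS8 was also called lower, by 0.16, but the call was kept in 1 of the 6 fits that leave out 1 array, that without 3 h replicate 1 (adjusted p up to 0.108 in the others), and its other probe set had a change of 0.21. NDUFV1, the flavin subunit where NADH is oxidised, read 8.58, 8.57 and 8.48 at 0 h and 8.65, 8.58 and 8.50 at 3 h. Its groups overlapped, and the change of 0.03 had an SE of 0.060 and an adjusted p of 0.667. NDUFS1, the largest iron-sulphur subunit, read 8.83 on each 0 h array and 8.74, 8.65 and 8.90 at 3 h (adjusted p = 0.45). Neither NDUFV2 (-0.05) nor NDUFS7 (-0.12) passed the test.

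**Figure D2:**
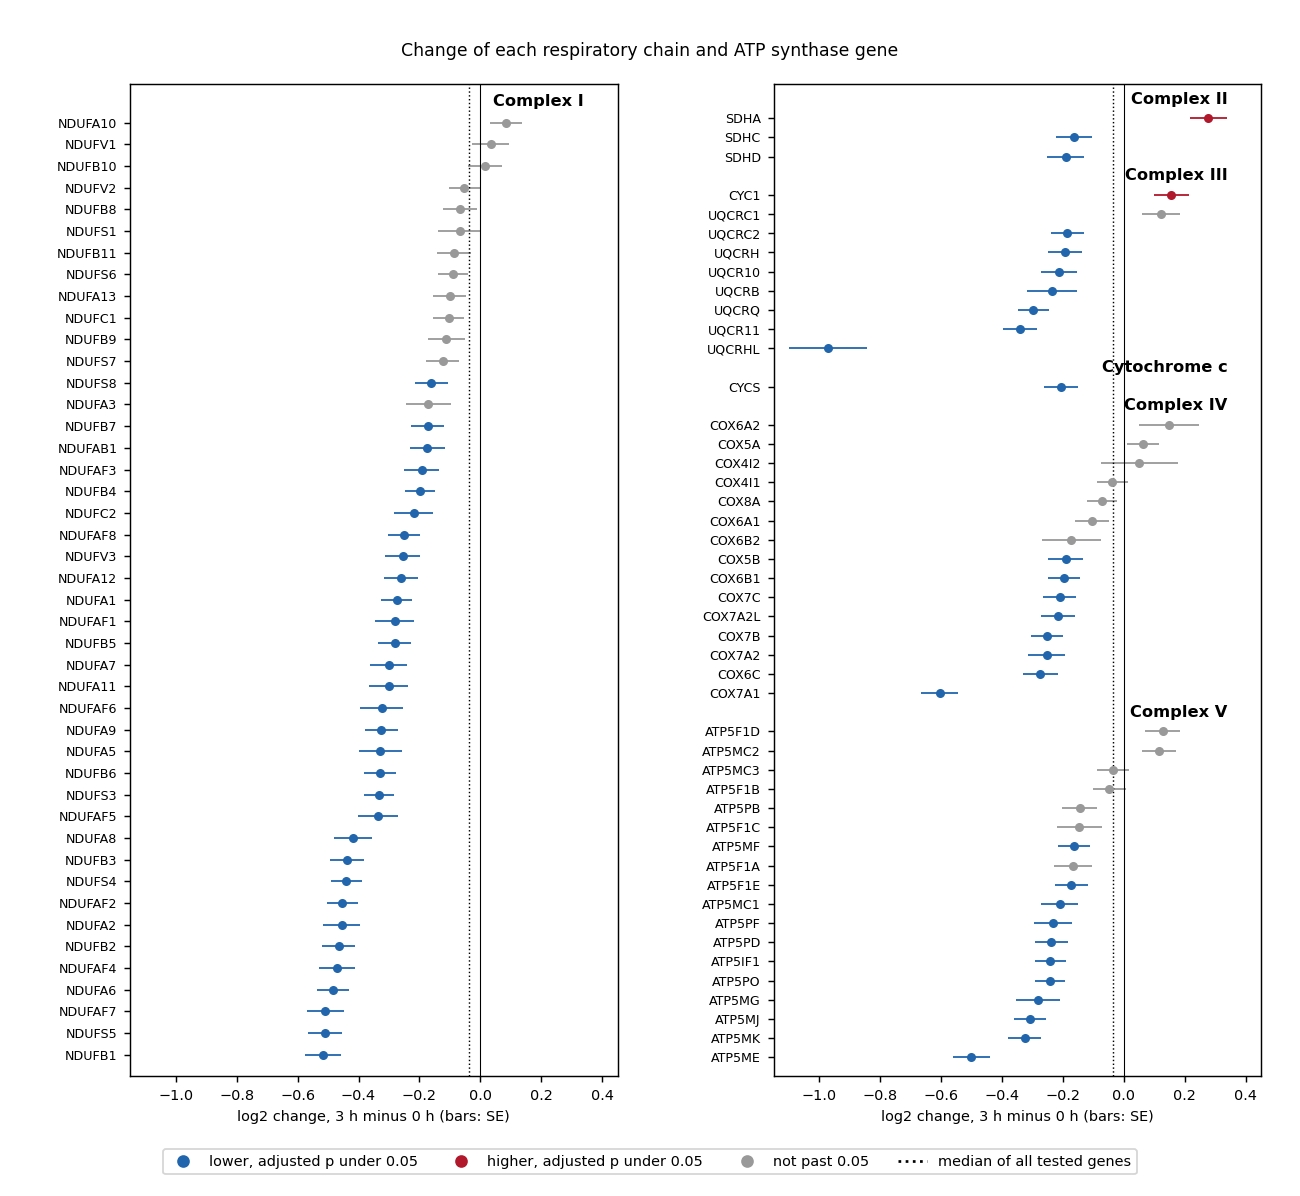
Log2 change, 3 h minus 0 h, of each of the 90 tested members (points, with bars for the SE of the limma fit, 3 arrays in each group), ordered within each complex, on the deposited scale. Blue points are lower and red points higher at an adjusted p under 0.05; SDHA and CYC1 are the 2 red points, and the dotted line marks the median of all tested genes at -0.04.

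**Figure D3:**
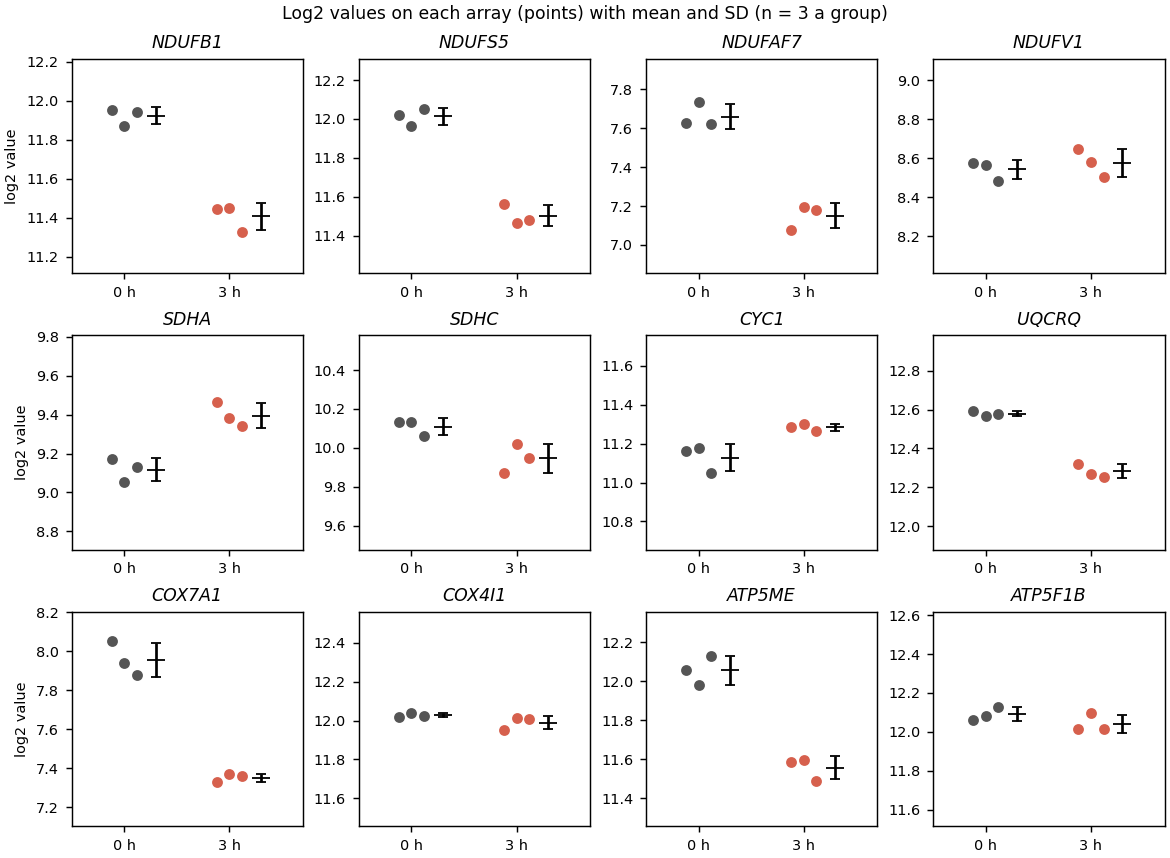
Log2 value of 12 members on each array (points; black for 0 h, red for 3 h) with the mean and SD of the 3 arrays beside them; every panel spans the same log2 range, but the ranges start at different levels. The groups are apart in NDUFB1, NDUFS5, NDUFAF7, COX7A1 and ATP5ME, apart in the opposite direction in SDHA and CYC1, and overlap in NDUFV1 and ATP5F1B.

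Complex II is the succinate dehydrogenase shared by the respiratory chain and the citric acid cycle. Of its 3 tested members 1 was higher and 2 were lower, beside 20.6% higher and 30.8% lower of all tested genes. SDHB was not analysed, so a division by role cannot be read from these genes. SDHA, the flavoprotein that oxidises succinate, read 9.17, 9.05 and 9.13 at 0 h and 9.46, 9.38 and 9.34 at 3 h. All 3 h arrays were above all 0 h arrays, and SDHA rose 1.21-fold (0.28, SE 0.060, adjusted p = 0.00483). Its other probe set above the floor also changed by 0.28, though both are of types that can match several transcripts, and SDHA has near-identical pseudogenes, so the source of the signal is uncertain. SDHC, a membrane anchor, read 10.13, 10.14 and 10.06 at 0 h and 9.87, 10.02 and 9.95 at 3 h, a change of -0.16 (adjusted p = 0.048). SDHD, the other membrane anchor, read 9.85, 9.95 and 9.83 at 0 h and 9.64, 9.65 and 9.76 at 3 h, a change of -0.19 (adjusted p = 0.0277). Neither anchor's groups overlapped, yet these calls were weak. That of SDHC was kept in 1 of the 6 fits that leave out 1 array (without 3 h replicate 2) and that of SDHD in 2 (without 0 h replicate 3 or 3 h replicate 3), with adjusted p up to 0.139 and 0.107 in the others. The 4 other probe sets of SDHC ran from -0.38 to 0.08.

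In complex III, which passes electrons from ubiquinol to cytochrome c, the median change was -0.21. Of 9 tested members 7 were lower and 1 was higher, beside 30.8% lower and 20.6% higher of all tested genes. The count lower was 3 without 0 h replicate 1 and 4 without 3 h replicate 2. The 6 accessory members were all lower. UQCRQ, a small subunit next to cytochrome b, read 12.59, 12.57 and 12.58 at 0 h and 12.32, 12.27 and 12.25 at 3 h, 1.23-fold lower (adjusted p = 0.00158). UQCR11, the smallest subunit, read 11.37, 11.32 and 11.40 at 0 h and 11.08, 11.02 and 10.97 at 3 h, 1.27-fold lower, although its other probe set gave 0.06. The groups were apart in both genes. UQCR10 fell by 0.21 and UQCRH, the hinge protein that holds cytochrome c1, by 0.19. Without 0 h replicate 1 both calls were lost (adjusted p = 0.0664 for UQCR10), as was that of UQCRH without 3 h replicate 2 (adjusted p up to 0.0814). UQCRHL, an intronless near-copy of UQCRH, had the largest change of all members. It read 10.36, 10.38 and 10.53 at 0 h and 9.44, 9.75 and 9.18 at 3 h, 1.96-fold lower (adjusted p = 0.000441), with an SD of 0.28 among the 3 h arrays. Its only probe set can match both copies, so the gene is uncertain. UQCRB was called lower by 0.24 (adjusted p = 0.0379), a call lost in 4 of the 6 fits that leave out 1 array (0 h replicates 1 and 3, 3 h replicates 2 and 3, adjusted p up to 0.124). Its other probe sets above the floor, at -1.16 and -0.83, moved further.

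The 3 core subunits of complex III divided into 1 higher, 1 lower and 1 not called, beside 20.6% higher and 30.8% lower of all tested genes. CYC1, the cytochrome c1 that carries the haem reduced by the complex, read 11.16, 11.18 and 11.05 at 0 h and 11.29, 11.30 and 11.26 at 3 h. All 3 h arrays were above all 0 h arrays, and the change of 0.16 had an SE of 0.057 and an adjusted p of 0.048. The call was lost when any of the 6 arrays was left out, with adjusted p from 0.0648 to 0.158, while the other 2 probe sets of CYC1 gave 0.21 and 0.33. UQCRC1, a core protein, read 10.48, 10.44 and 10.44 at 0 h and 10.63, 10.47 and 10.62 at 3 h. Its groups overlapped and 0.12 did not pass (adjusted p = 0.128), but its other probe sets, at 0.35 and 0.66, had all 3 h arrays above all 0 h arrays. Without 3 h replicate 2 the gene was called higher, at 0.17 (adjusted p = 0.0381). UQCRC2, the partner core protein, was called lower by 0.19, a call lost without 0 h replicate 1, 0 h replicate 2 or 3 h replicate 2 (adjusted p up to 0.0728). CYCS, the soluble cytochrome c, read 11.74, 11.70 and 11.79 at 0 h and 11.49, 11.54 and 11.58 at 3 h. It fell 1.15-fold on this probe set (adjusted p = 0.0136, and 0.0517 without 0 h replicate 3), but its other 2 probe sets gave -0.03 and 0.09.

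Complex IV, the cytochrome c oxidase, had 15 tested members of 17 on the array, with a median of -0.19. Of the 15, 8 were lower, 0 higher and 7 not called, beside 30.8% lower and 20.6% higher of all tested genes. Among the 10 members grouped as common subunits or broadly expressed isoforms, 6 were lower. COX6C, a small subunit of the membrane part, read 12.01, 11.98 and 12.05 at 0 h and 11.70, 11.71 and 11.81 at 3 h, 1.21-fold lower (adjusted p = 0.00372). COX7B, another small membrane subunit, read 12.21, 12.14 and 12.20 at 0 h and 11.92, 11.91 and 11.96 at 3 h, 1.19-fold lower (adjusted p = 0.00387). COX7A2, the broadly expressed isoform of subunit VIIa, fell by 0.25, COX7C by 0.21, COX6B1 by 0.20 and COX5B by 0.19. The groups did not overlap in any of these 6. The call of COX6B1 was lost without 0 h replicate 1 (adjusted p = 0.0593), and that of COX5B without 0 h replicate 1, 0 h replicate 3 or 3 h replicate 3 (adjusted p up to 0.0805). COX4I1, the largest nuclear-encoded subunit, read 12.02, 12.04 and 12.03 at 0 h and 11.95, 12.01 and 12.01 at 3 h, a change of -0.04 (SE 0.051, adjusted p = 0.562). All 3 h arrays lay just below all 0 h arrays, while its other probe sets gave -0.49 and -0.12. COX5A read 11.54, 11.46 and 11.48 at 0 h and 11.58, 11.53 and 11.55 at 3 h (0.06, adjusted p = 0.347).

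Of the isoforms and relatives, COX7A1, the subunit VIIa isoform of heart and skeletal muscle, changed most. It read 8.05, 7.94 and 7.88 at 0 h and 7.33, 7.37 and 7.36 at 3 h. The groups were far apart, and the gene fell 1.52-fold (-0.60, SE 0.061, adjusted p = 0.000134). Its only probe set is of a type that can match several transcripts or genes. COX7A2L, which links complexes III and IV in supercomplexes, was called lower by 0.22 with its brightest probe set, and its other probe set gave 0.02. COX6A2, COX4I2 and COX6B2, isoforms of muscle, lung and testis, lay near the floor (4.69 to 5.41 at 0 h) and did not pass, though COX6A2 was called higher without 3 h replicate 2 (adjusted p = 0.0285). The gene once named NDUFA4, now COXFA4, encodes a complex IV subunit under a symbol outside the rule. It changed by -0.09 (adjusted p = 0.207), and COXFA4L2, formerly NDUFA4L2, by 0.03 (0.706).

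The 18 tested members of complex V had a median change of -0.19. Of the 18, 11 were lower, 0 higher and 7 not called, beside 30.8% lower and 20.6% higher of all tested genes. Without 0 h replicate 1 the count lower was 7, with the calls of ATP5F1E, ATP5PF, ATP5MC1 and ATP5MF lost. The membrane part and the peripheral stalk contributed 9 of the 11, of 12 tested. ATP5ME, subunit e at the interface of ATP synthase dimers, read 12.06, 11.98 and 12.13 at 0 h and 11.58, 11.60 and 11.49 at 3 h, 1.41-fold lower without overlap (adjusted p = 0.000312), and its other probe set gave -0.48. ATP5MK, a small protein of the membrane part that supports dimers, read 12.40, 12.33 and 12.35 at 0 h and 12.05, 12.07 and 11.99 at 3 h, 1.25-fold lower (adjusted p = 0.00124). ATP5MJ, another small membrane proteolipid, read 11.86, 11.80 and 11.81 at 0 h and 11.54, 11.47 and 11.53 at 3 h, 1.24-fold lower (adjusted p = 0.00149). The groups were apart in all of these. ATP5MG fell by 0.28. ATP5MF, subunit f, was called lower by 0.16 (adjusted p = 0.0312), a call kept in 1 of the 6 fits that leave out 1 array (without 3 h replicate 1), with adjusted p up to 0.12 in the others. In the same part, ATP5PO, ATP5PD and ATP5PF, subunits of the peripheral stalk, fell by 0.24, 0.24 and 0.23. The call of ATP5PF was lost without 0 h replicate 1 (adjusted p = 0.0571). ATP5IF1, the inhibitor that stops the enzyme from running backwards, read 12.20, 12.19 and 12.24 at 0 h and 11.99, 11.96 and 11.96 at 3 h, 1.18-fold lower (adjusted p = 0.00422).

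The 3 genes for subunit c of the rotor ring, whose mature proteins are identical, differed in their values. ATP5MC1 read 9.75, 9.65 and 9.79 at 0 h and 9.51, 9.57 and 9.48 at 3 h and was called lower by 0.21, a call lost without 0 h replicate 1 or 3 (adjusted p up to 0.0643). ATP5MC2 read 11.21, 11.20 and 11.20 at 0 h and 11.39, 11.29 and 11.27 at 3 h, apart in the upward direction but not past the test (0.12, adjusted p = 0.112). ATP5MC3 read 12.19, 12.22 and 12.22 at 0 h and 12.19, 12.11 and 12.21 at 3 h (-0.04, adjusted p = 0.604). In the F1 part, which holds the catalytic head, 1 of 5 members was lower (20%, beside 30.8% of all tested genes). This was ATP5F1E, the epsilon subunit, which fell by 0.17. The call was kept in 2 of the 6 fits that leave out 1 array (without 0 h replicate 2 or 3 h replicate 1), with adjusted p up to 0.0973 in the others. ATP5F1B, the catalytic beta subunit, read 12.06, 12.08 and 12.13 at 0 h and 12.02, 12.10 and 12.01 at 3 h, with overlap (-0.05, adjusted p = 0.481). ATP5F1A, the alpha subunit, read 12.14, 12.17 and 12.31 at 0 h and 12.06, 12.07 and 11.99 at 3 h (-0.17, adjusted p = 0.0547), while its other probe sets ran from 0.06 to 0.41. ATP5F1D, the delta subunit, was above at 3 h on every array but did not pass (0.13, adjusted p = 0.0982, and 0.0485 without 3 h replicate 3).

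Some differences between members of a complex are given as a description, for pairs chosen after their values were seen. Between 0 h and 3 h the log2 difference within an array changed by 0.44 for SDHA minus SDHC, by 0.45 for CYC1 minus UQCRQ, by 0.33 for ATP5MC2 minus ATP5MC1 and by -0.35 for COX7A1 minus COX7A2.

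Other probe sets of the same genes gave a second reading of the same arrays. Above the floor, the tested members had 99 of them (3 hold the same values as another), of which 74 were below zero (74.7%), with a median of -0.19. For all tested genes, 44.7% of the 15014 other probe sets were below zero, with a median of 0.05. In 63 of the 99, all 3 h arrays lay below all 0 h arrays, and in 12 above, against 26.6% and 34.3% of those of all tested genes. Of the 60 members called lower, 34 had another probe set above the floor, and in 27 of these all were below zero. NDUFB8 showed how far probe sets can differ: its brightest changed by -0.07 with overlap and its other by -0.62 without. ATP5F1C gave -0.15, -0.74 and -1.07. The brightest probe set of 45 of the 90 members, and of 32.6% of all tested genes, was of a type that can match several transcripts or genes.

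**Figure D4:**
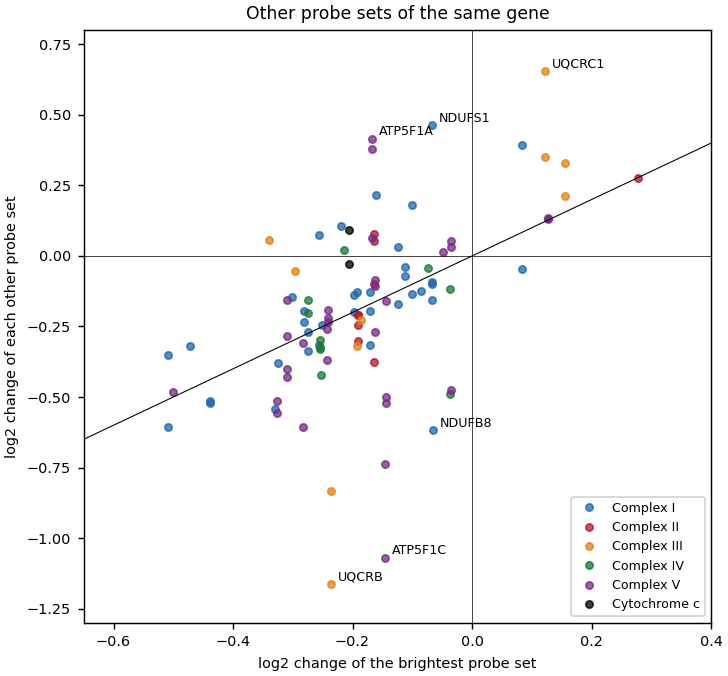
Log2 change, 3 h minus 0 h, of each of the 99 other probe sets above the floor (vertical axis) against that of the brightest probe set of the same gene (horizontal axis), coloured by complex, with the line of equality. Most points lie below zero on both axes; UQCRB, ATP5F1C and NDUFB8 have other probe sets well below the line, and ATP5F1A, NDUFS1 and UQCRC1 well above it.

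Promoters of respiratory genes are known for sites of NRF1 and of ETS family factors such as GABPA. Of the 93 members 76 are in the RefSeq promoter table (GRCh38.p14), and the 250 bases before each start were searched on both strands. The NRF1 core GCGCATGCG stood in 10 of the 76, 13.2%, against 2.02% of 27305 genes with a promoter. The ETS core CCGGAAG stood in 19, 25.0%, against 10.2%. Shown are stretches around the NRF1 core from members of which ATP5ME, NDUFA5 and NDUFB4 were called lower and NDUFS7 and ATP5MC2 were not called, in gene orientation with every match in the stretch in capitals; a match to the opposite strand reads CGCATGCGC, and in NDUFB4 matches to both strands overlap.
ATP5ME: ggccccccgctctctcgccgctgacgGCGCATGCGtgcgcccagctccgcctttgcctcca
NDUFA5: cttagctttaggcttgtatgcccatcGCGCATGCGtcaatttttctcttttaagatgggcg
NDUFB4: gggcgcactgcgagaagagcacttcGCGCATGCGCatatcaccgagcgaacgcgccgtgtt
NDUFS7: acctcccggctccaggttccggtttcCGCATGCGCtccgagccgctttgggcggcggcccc
ATP5MC2: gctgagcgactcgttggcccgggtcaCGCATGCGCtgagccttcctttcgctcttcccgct

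These lie at chr4:674320-674380 on the minus strand (ATP5ME), chr7:123557942-123558002 on the minus strand (NDUFA5), chr3:120596152-120596212 on the plus strand (NDUFB4), chr19:1383807-1383867 on the plus strand (NDUFS7) and chr12:53676090-53676150 on the minus strand (ATP5MC2). The ETS core, every match again in capitals, is shown for members called lower in complexes I and III; NDUFS3 and UQCR11 hold a match to each strand.
NDUFAF4: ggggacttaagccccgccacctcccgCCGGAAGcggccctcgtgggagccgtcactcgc
NDUFS3: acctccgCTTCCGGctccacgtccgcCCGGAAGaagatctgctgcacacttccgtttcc
UQCRQ: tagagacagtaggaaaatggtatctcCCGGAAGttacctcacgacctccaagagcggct
UQCR11: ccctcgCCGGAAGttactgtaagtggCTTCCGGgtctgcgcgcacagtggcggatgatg

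They lie at chr6:96898006-96898064 on the minus strand (NDUFAF4), chr11:47578965-47579023 on the plus strand (NDUFS3), chr5:132866562-132866620 on the plus strand (UQCRQ) and chr19:1605527-1605585 on the minus strand (UQCR11). By call, the NRF1 core stood in 5 of 50 promoters of members called lower and in 5 of 23 of those not called, and the ETS core in 14 of 50 and 5 of 23. The YY1 core AAGATGGCG was found in ATP5PF alone among the 76 (1.32%, against 0.784% of genes). A match is a description of these letters, not of binding.

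Genes that serve the same pathway outside the family were read beside the members. Of 49 tested assembly factors with other names, 31 were lower, 1 was higher and 17 were not called, with a median of -0.26. Of all tested genes 30.8% were lower and 20.6% higher. The count lower ran from 26 to 31 when 1 array was left out. COA5, a factor for complex IV, went from 9.64 ± 0.07 to 8.97 ± 0.05 (log2, SD, n = 3), 1.59-fold lower. ATPAF1, a chaperone of the F1 head, fell by 0.56, COX14 by 0.50 and COX11, which delivers copper to complex IV, by 0.50. COX15, an enzyme of haem a synthesis, was the 1 called higher (0.18, adjusted p = 0.0277), a call kept in 1 of the 6 fits that leave out 1 array (without 3 h replicate 3), with adjusted p up to 0.0846 in the others. Of 20 genes for ubiquinone synthesis and for other enzymes that feed ubiquinone, 8 were lower and 3 higher (all tested genes: 30.8% and 20.6%), with a median of -0.10. Without 0 h replicate 2 the counts were 5 and 2, with the calls of COQ10B, ETFDH, GPD2 and COQ8A lost. COQ10A fell by 0.58, COQ5 fell by 0.49 and PDSS1, which makes the side chain of ubiquinone, fell by 0.46 on the log2 scale. ETFB of the electron transfer flavoprotein rose by 0.33.

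Of 15 tested regulators of mitochondrial biogenesis, 5 were higher, 5 lower and 5 not called, beside 20.6% higher and 30.8% lower of all tested genes. The count higher was 3 without 0 h replicate 1, 0 h replicate 2, 3 h replicate 1 or 3 h replicate 2, with calls of ESRRA, PPARGC1B or POLRMT lost, and the count lower was 3 without 0 h replicate 1 or 3. HCFC1, a coregulator of GABPA, rose 1.99-fold, from 7.22 ± 0.10 to 8.21 ± 0.11 (n = 3), and PPRC1, a coactivator of the PGC-1 family, 1.64-fold. GABPA fell by 0.42, NRF1 by 0.20 (adjusted p = 0.015), TFAM, which packages mitochondrial DNA, by 0.26 (adjusted p = 0.0436), TFB2M by 0.37 and MTERF1 by 0.43. The call of NRF1 was lost without 0 h replicate 1 or 3 (adjusted p up to 0.0565) and that of TFAM without 0 h replicate 1 or 3 or 3 h replicate 1 or 2 (adjusted p up to 0.151). With the mean of all its probe sets, the change of NRF1 was 0.0046. PPARGC1A, the coactivator PGC-1 alpha, changed by -0.02 (adjusted p = 0.887). Of the 13 subunits encoded by mitochondrial DNA, 3 had a probe set with a single symbol. ND1 and ND4 of complex I rose 1.90-fold and 1.50-fold, ND1 from 11.45 ± 0.03 to 12.37 ± 0.05 and ND4 from 12.66 ± 0.01 to 13.25 ± 0.06 (n = 3). COX3 of complex IV changed by -0.20 and did not pass (adjusted p = 0.0869). The probe sets read for ND1, ND4 and COX3 are all of types that can match several transcripts or genes, so the source of these signals is uncertain.

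**Figure D5:**
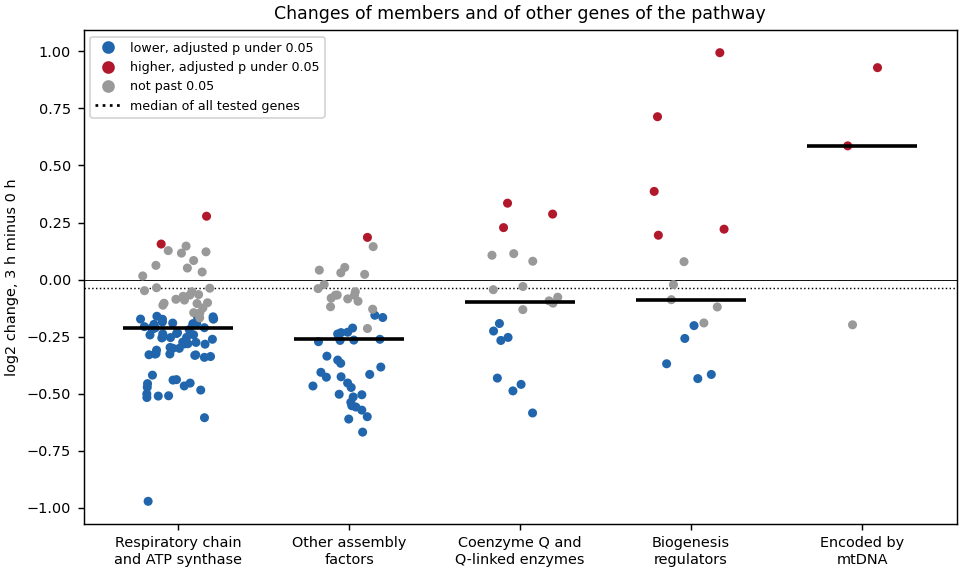
Log2 change, 3 h minus 0 h, of each tested gene (points, spread sideways at random for legibility) in the family and in 4 other lists of the pathway, with the median of each list as a black bar, on the deposited scale. The family and the other assembly factors have medians of -0.21 and -0.26, the regulators hold 5 higher and 5 lower genes, and 2 of the 3 mitochondrially encoded genes are higher.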

How the data were processed

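RNA from 6 ARPE-19 samples was amplified and labelled with biotin by a 3′ IVT kit, per the labels' protocols, and hybridised to 1 Affymetrix array each. The deposited values are on a log2 scale, as read from the values, whose median runs from 5.30 to 5.34. MAS5 and RMA are listed without version or role, per the submitters' processing notes. RMA, if it gave these values, brings the probe intensities of all arrays to a common distribution. A change in total RNA then cannot be seen. Depth is not defined for arrays, and their number limits the precision.

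Gene symbols came from the platform annotation. The members have 213 probe sets with 1 symbol, and 12 probe sets with several symbols, including 1 of the family, were left out. All 93 members matched the gene table of GRCh38.p14. Each gene was read from its probe set with the highest mean, genes whose mean fell short of log2 4.64, the 40th percentile over probe sets other than controls, were left out, and limma 3.58.1 in R 4.3.3 (lmFit, eBayes) compared 3 h with 0 h, with Benjamini-Hochberg adjustment over 12221 genes. Every adjusted p is from this fit unless another is named, and "rose" and "fell" are used at 0.05. Changes are 3 h minus 0 h. The fit was tested on simulated data. Figures were drawn with matplotlib 3.10.9.

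Members and lists were chosen with earlier results of these data known. The rule named the 4 largest changes in each direction per complex and a fixed set of subunits, and the 4 smallest p-values of each other list with PPARGC1A, NRF1, GABPA and TFAM; other members named were chosen after their values were seen. Samples of equal replicate number did not deviate together (correlations -0.04, -0.02 and -0.19), so no pairing was used. Alternatives covered scaling, filter, probe set choice, variance model, array weights, thresholds, each array left out and, added after seeing the data, removal of a trend on local gene density.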

Additional observations from a re-analysis of the deposited data

How the results depend on the processing

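The median change of the members and of complexes I to V stayed negative under the settings in which they were computed: scaling, floor, probe set choice, replicate block, density trend and each array left out. The count of members called lower, 60, ran from 43 to 57 when 1 array was left out and was 13 with a 1.2-fold minimum (limma's treat) and 39 at an adjusted p of 0.01; of all genes the 1.2-fold minimum left 782 higher and 1006 lower, and the adjusted p of 0.01 left 1732 and 2722. The count called higher, 2, was 1 with median centring, no floor, array weights, probe sets of shared type left out, or an adjusted p of 0.01, 0 with the 1.2-fold minimum, 5 with the mean of all probe sets or a robust variance trend, and 1 to 3 without 1 array. With the replicate block, 53 members were lower and 1 higher (3502 and 2336 of all genes); it ended 3 calls among the members named by rule. The median of the members was -0.25 with median centring, -0.23 without shared probe sets and -0.18 with the density trend removed. That of complex I was -0.31 with centring, -0.24 with the mean of probe sets and -0.21 with the density trend removed. Complex II gave -0.10 with the mean of probe sets. Without shared probe sets only SDHC of complex II was left, at -0.38 against -0.16 with its brightest, so that value is not one of the complex. Complex III gave -0.25 with centring, -0.26 without shared ones and -0.24 to -0.17 without 1 array. Complex IV gave -0.17 with quantile normalization, -0.23 with centring, -0.10 with the density trend removed and -0.21 to -0.18 without 1 array. Complex V gave -0.23 with centring and without shared ones, -0.22 with the mean of probe sets, -0.17 with the density trend removed and -0.23 to -0.18 without 1 array. By the choice of probe sets, signs turned for ATP5F1A (0.17), NRF1 (0.0046), NDUFS8 (0.027), NDUFA13 (0.050) and NDUFS1 (0.0095) with the mean of all probe sets, and for CYCS (0.092), COX7A2L (0.020), NDUFA13 (0.18), ATP5F1A (0.064) and ATP5MC3 (0.053) without shared probe sets; the cause was not tested. Some other members that were not called turned sign under other settings, while among the members called no others than NDUFS8, CYCS and COX7A2L did so in the settings run. Of the 60 members called lower, 42 stayed so whichever array was left out.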

Other observations

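The members' surroundings were described with no test. Of the 90 members, 84 were in the brightest of 3 equal classes of tested genes, where the genes' median change was -0.08 and 36.4% were lower. Across all tested genes, those with few protein-coding neighbours within 500 kb were lower more often: 44.8% of genes with 0 to 8 neighbours (median -0.15), 29.9% with 9 to 19 (median -0.03) and 15.6% with 20 to 75 (median 0.06). The members' medians in these classes were -0.22, -0.24 and -0.17, with 20 of 30, 21 of 25 and 19 of 35 called lower. By the GC content of the promoter, 26 of 36 members were lower in the lowest class (median -0.22), 19 of 25 in the middle (-0.21) and 5 of 13 in the highest (-0.05), where the bin holds under 20 members. Over all genes these classes had medians of -0.09, -0.06 and 0.01, with 37.8%, 32.8% and 25.1% called lower.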
